A study of Mus musculus with 8 samples.

Results

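Brown adipose tissue (BAT) releases proteins that act on BAT itself and on other organs, often called batokines, and 10 genes of this kind were followed here in BAT of mice. The 10 genes were picked by symbol, with earlier results of these data known, out of 49452 genes in the table, and all 10 were found. They are Fgf21, Gdf15, Bmp8b, Bmp4, Bmp7, Mstn, Fst, Inhbb, Il6 and Metrnl. RNA-Seq was performed on BAT of 8 male C57BL/6 mice in 4 groups of 2. In the cold experiment, mice 10 to 12 weeks old were kept at 22 °C (replicates 4 and 7) or at 4 °C for 24 h (replicates 2 and 11). By the study's methods the cold exposure ran for 20 h with food and 4 h without, and whether the 22 °C mice were fasted too is not clear. In the diet experiment, mice 32 weeks old had received for 28 weeks either a high-fat diet (HFD, replicates 2 and 6) or the control food (replicates 6 and 8). The labels name this control food normal chow (NCD, the name used here). The study's text instead speaks of a control diet with the same micronutrients as the HFD. The 2 experiments thus differed in age, food and control group, and no genetic change is named for any of the 8 mice.

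BAT burns lipids and glucose to make heat through uncoupling protein 1, and noradrenaline released in the cold turns this on. Several of the 10 genes encode members of the TGF-beta superfamily, whose ligands bind pairs of type I and type II receptor kinases and pass the signal on through SMAD proteins: BMPs through SMAD1, SMAD5 and SMAD9, activins and myostatin through SMAD2 and SMAD3. Fgf21 encodes a fibroblast growth factor that acts as a hormone through FGFR1 and its co-receptor beta-klotho (Klb). Gdf15 encodes a distant member of the TGF-beta superfamily that signals through GFRAL and RET in the hindbrain and lowers food intake. Both Fgf21 and Gdf15 are known targets of ATF4, the transcription factor of the integrated stress response, and Fgf21 is also switched on in brown adipocytes by cAMP.

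The promoters of the 3 genes with the highest ratios in the cold are shown because all 3 were higher in both cold libraries than in both controls. The letters are the 250 bases before the RefSeq start of each gene, from RefSeq on GRCm38.p6, on the strand of the gene, with matches to the searched motifs in capitals.
Fgf21, chr7:45615491-45615740, minus strand: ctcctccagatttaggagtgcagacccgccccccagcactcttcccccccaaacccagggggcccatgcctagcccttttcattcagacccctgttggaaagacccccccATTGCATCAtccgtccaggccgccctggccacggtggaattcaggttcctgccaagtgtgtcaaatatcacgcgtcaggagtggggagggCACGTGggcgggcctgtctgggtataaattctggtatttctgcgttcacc
Gdf15, chr8:70632457-70632706, minus strand: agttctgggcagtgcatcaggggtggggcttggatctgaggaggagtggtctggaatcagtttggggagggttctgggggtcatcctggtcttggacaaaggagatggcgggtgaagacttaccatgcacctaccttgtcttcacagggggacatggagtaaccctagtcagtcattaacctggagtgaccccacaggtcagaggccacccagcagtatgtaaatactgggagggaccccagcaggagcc
Bmp8b, chr4:123104911-123105160, plus strand: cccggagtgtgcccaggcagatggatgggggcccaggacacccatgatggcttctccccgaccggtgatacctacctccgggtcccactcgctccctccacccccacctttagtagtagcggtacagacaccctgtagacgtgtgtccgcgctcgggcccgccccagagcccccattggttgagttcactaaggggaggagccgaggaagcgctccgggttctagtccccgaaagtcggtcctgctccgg
Windows of this length were given for 8 of the 10 genes, 9 windows in all, since Gdf15 had a second start. Fst and Bmp7 were not in the table of promoters. The motifs searched on both strands were TGATGCAAT (the composite site of C/EBP and ATF factors), its looser form TGATGNAA, TGACGTCA and TGACGT (the full and short cAMP response element) and CACGTG (the E-box). The Fgf21 window held TGATGCAAT on the opposite strand, printed as ATTGCATCA, from base 140 to base 132 before the start (chr7:45615622-45615630). The same 9 bases, which also make up the looser match, were present in 0.167% of 32851 promoter windows, and TGATGNAA in 3.45%. Fgf21 further held CACGTG from base 50 to base 45 before its start, as did the second Gdf15 window (bases 83 to 78) and Bmp4 (bases 188 to 183), where 6.02% of all windows had this motif. TGACGT was matched in Il6 alone (6.47% of all windows), and TGACGTCA in none of the 9 (1.55% of all windows). The first Gdf15 window and the Bmp8b window held none of the 5 motifs. A match is a description of the letters and not a measured site.

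Levels are given in FPKM (fragments per kilobase of transcript and of mapped fragments in the library, so levels of different genes can be set side by side). Per library, 10228 to 11436 genes reached 1 FPKM. All 12 brown adipocyte markers on the list, Ucp1 among them, were above 0 in every group, and their summed level was 2802 and 3815 FPKM at 22 °C, 10160 and 8417 at 4 °C, 8608 and 5035 in NCD and 4282 and 6566 in HFD. A satellite repeat gene, Gm10800, exceeded 100 FPKM in 4 libraries, 1 per group, which were replicate 4 at 22 °C, replicate 11 at 4 °C, NCD replicate 8 and HFD replicate 2 (the Gm10800-high libraries), so the groups are balanced for this split. Genes on the X chromosome were listed at 0 in both 22 °C libraries and in NCD replicate 6, while the other 5 libraries listed 779 to 1175 of them above 0. The libraries without X genes also listed 0 or 1 mitochondrial genes above 0, and the others 15. In the cold experiment these differences cannot be told apart from temperature, and none of the 10 genes lies on the X chromosome. The sum of FPKM over autosomal genes ran from 214794 (22 °C replicate 4) to 466737 (4 °C replicate 2), so the scale of autosomal genes may differ between libraries. The description of NCD replicate 6 also begins with another character string than those of the other 3 libraries of the diet experiment, which share one. It begins like those of all libraries of the cold experiment, and what the strings stand for is not stated. Depth is not stated, but low values rose in steps that match single fragments, from which fragment numbers were estimated (0.00438 to 0.00602 FPKM for 1 fragment on 2000 bases). A fold change below is on the log2(FPKM + 1) scale unless a ratio of FPKM means is named, and this scale understates the change of low genes. A gene passed the test with a limma adjusted p under 0.05 over all genes and at least a 2-fold change. On the log2(FPKM + 1) scale a gene under 1 FPKM in both controls cannot fall 2-fold, so it could not be called lower.

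Of the 10 genes, Metrnl had the highest mean level over the 8 libraries (6.25 FPKM), and Fgf21 (2.68), Gdf15 (1.79) and Fst (1.32) were the others with a mean over 1 FPKM. Bmp7 and Il6 had the lowest means (0.0579 and 0.0571 FPKM). Fgf21 and Gdf15 also varied most, with 207-fold and 262-fold between the lowest and the highest library, against 3.45-fold for Fst. In the cold 2 of the 9 genes that entered the test rose, Fgf21 and Bmp8b, and none fell, where 1.22% of 17477 genes rose and 0.223% fell. Of the 9, only Fst and Metrnl were over 1 FPKM at 22 °C, so only these could have been called lower. An unadjusted p under 0.05 was reached there by 6 of the 9 (background 24.5%). Under HFD none of the 9 tested changed, where 0.0684% of 17543 genes did (limma), and 6 of the 9 had an unadjusted p under 0.05 (background 14.4%). Counting only whether both libraries lay outside both controls, 6 of the 10 genes were higher at 4 °C (background 37.9% of genes tested) and 1 was lower (background 20.6%). Under HFD 5 of the 10 were higher in both libraries (background 39.9%) and 2 were lower in both (background 5.8%). Fgf21, Gdf15, Bmp8b and Mstn entered the cold test, and Mstn the diet test, only through the group in which they were high, so these counts describe the genes and support nothing by themselves. In bulk tissue, fewer cells of a type and less RNA per cell cannot be told apart.

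**Figure D1:**
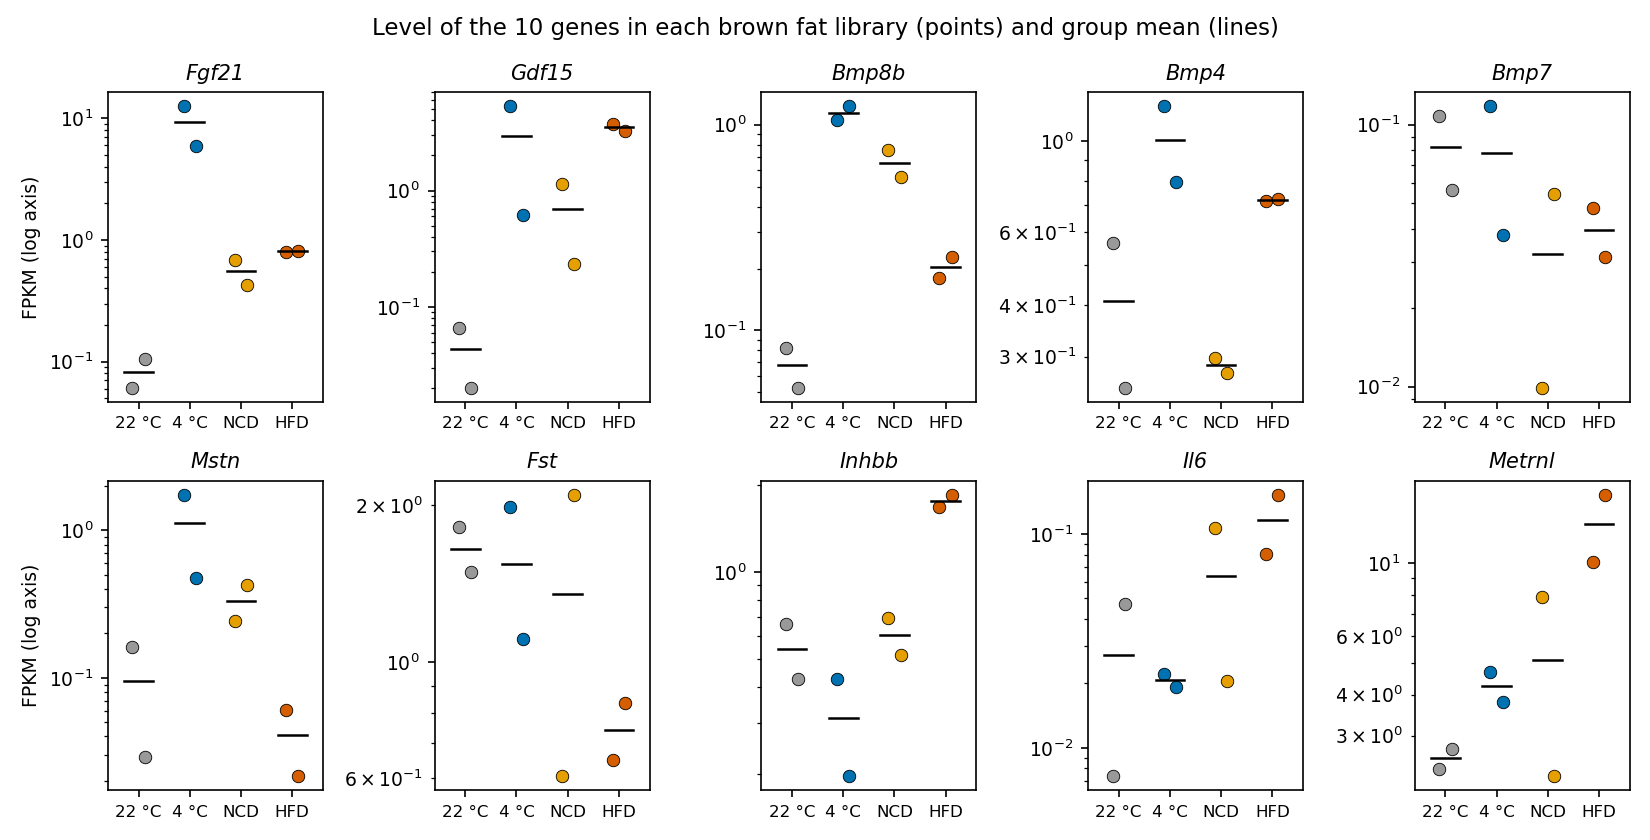
FPKM (log axis, own scale per panel) of each of the 10 genes in the 2 libraries of each group; points are libraries and lines are group means. The 4 °C libraries of Fgf21 sit at 12.6 and 5.91 FPKM above all other libraries, and the HFD libraries of Bmp8b and Mstn sit below both NCD libraries.

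Fgf21 (ENSMUSG00000030827, chromosome 7, 45613886 to 45615490, minus strand, GRCm38) is a short gene with 1 annotated transcript of 951 bases in 3 exons. Its level was 0.0611 and 0.104 FPKM at 22 °C, about 6 and 10 fragments. At 4 °C it was 12.6 and 5.91 FPKM, about 907 and 494 fragments. Both cold libraries were far above both controls, and the ratio of means was 112 (9.26 ± 4.74 against 0.0826 ± 0.0304 FPKM, SD, n = 2 each). The fold change was 3.16 ± 0.34 (SE, 95% interval 2.31 to 4.02, adjusted p 0.0299 by limma). The rise was present within both library types, with a ratio of 96.8 between the Gm10800-high and 121 between the Gm10800-low libraries. The call was lost without 4 °C replicate 2 (fold change 2.67, adjusted p 0.0838), without the filter on low values (0.171), without the intensity trend (0.0803) and with a skeletal muscle score as covariate (0.134), where adjusted p over all alternatives ran from 1.50e-10 to 0.171 (limma) and the fold change stayed at 2.67 or more.

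In the diet experiment Fgf21 was at 0.680 and 0.428 FPKM in NCD and at 0.799 and 0.814 FPKM in HFD. The HFD libraries were close to each other and a little above both NCD libraries, with a fold change of 0.22 ± 0.15 (SE, 95% interval −0.13 to 0.58, limma adjusted p 0.557). A change in either direction was not shown. By group mean Fgf21 was highest at 4 °C, then in HFD, NCD and at 22 °C, with no overlap between neighbouring groups. NCD and 22 °C come from experiments that differ in age and food, and their difference was not tested.

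Gdf15 (ENSMUSG00000038508, chromosome 8, 70629393 to 70632456, minus strand) was barely detected at 22 °C, at 0.0659 and 0.0203 FPKM, about 11 and 3 fragments. At 4 °C it was 5.32 FPKM in replicate 2 and 0.615 FPKM in replicate 11. Both cold libraries were above both controls, but they differed from each other widely, and the fold change of 1.61 ± 0.61 (SE) did not pass (95% interval 0.08 to 3.15, limma adjusted p 0.190). The ratio of means was 68.8, made up of a ratio of 9.33 between the Gm10800-high and 262 between the Gm10800-low libraries. Leaving out either 22 °C library brought Gdf15 past the threshold (limma adjusted p 0.0315 without replicate 4 and 0.00119 without replicate 7), as did rescaling to the autosomal sum (1.38, 7.79e-07), under which Bmp8b lost its call, within a range of 7.79e-07 to 0.489 over the alternatives.

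Under HFD, Gdf15 was 3.73 and 3.23 FPKM, against 1.14 and 0.235 FPKM in NCD. Both HFD libraries were above both NCD libraries, 5.05 times higher by the means (3.48 ± 0.356 against 0.689 ± 0.642 FPKM, SD, n = 2 each), and the NCD libraries differed widely from each other. The fold change was 1.46 ± 0.31 (SE, 95% interval 0.73 to 2.19) and its adjusted p of 0.151 (limma) missed the threshold. Against NCD replicate 8 alone, which shares its description prefix with the HFD libraries, the fold change was 1.86 and passed (limma adjusted p 5.22e-05), while without NCD replicate 8 it was 1.06 and did not (0.152). Gdf15 also passed with library type as a covariate (0.0118) and without HFD replicate 2 (0.00911) or replicate 6 (0.0204), and over all alternatives its adjusted p ran from 5.22e-05 to 0.601 (limma). Macrophage markers moved with it in the diet experiment. All 8 were higher in both HFD libraries than in both NCD libraries (background 39.9%), summing to 284 and 321 FPKM in HFD and to 137 and 51.4 FPKM in NCD, none of them at 0, and 0 of the 8 passed the test. With the macrophage score as a covariate over all 8 libraries the HFD difference of Gdf15 was −1.11 ± 0.72 (SE, limma adjusted p 0.601). Since all 8 markers were higher under HFD, macrophage level and diet cannot be told apart, here and for the genes below. No gene at all was called in that fit. In the cold 1 of the 8 was higher in both libraries (background 37.9%) and none was lower in both. Their sums were 93.4 and 67.9 FPKM at 22 °C and 155 and 75.4 at 4 °C.

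Fgf21 and Gdf15 were then set beside 19 genes of the integrated stress response. In the cold, 2 of the 17 tested rose (background 1.22%) and none fell (background 0.223%). They were Ddit4, an inhibitor of mTORC1 signalling (2.30 and 2.82 FPKM at 22 °C, 20.8 and 20.6 at 4 °C, fold change 2.61, limma adjusted p 0.0196), and Atf5, a transcription factor (6.20 and 11.2 FPKM at 22 °C, 53.5 and 41.5 at 4 °C, fold change 2.36, adjusted p 0.0442). Both calls ended without the filter on low values, without the trend and with the muscle covariate, where no gene at all was called. The median fold change of the 17 was 1.44, against 0.07 over all genes tested, and 12 of the 17 were higher in both cold libraries (background 37.9%). Named after its values were seen, Atf4 itself was 27.5 and 32.5 FPKM at 22 °C and 136 and 82.45 FPKM at 4 °C (fold change 1.79, limma adjusted p 0.0558, not past the threshold). At the low end Eif4ebp1, which encodes a brake on translation, was 74.6 and 66.7 FPKM at 22 °C and 47.9 and 39.8 FPKM at 4 °C and did not pass (limma adjusted p 0.155). Under HFD none of the 19 tested passed the test (background 0.0684%), with 7 at an unadjusted limma p under 0.05 (background 14.4%). The median fold change was 0.52 against 0.18 over all genes tested. Of the 19, 14 were higher in both HFD libraries (background 39.9%) and 1 was lower in both (background 5.8%). The cold and diet differences of Ddit4 differed from each other by 2.05 (adjusted p 0.0382, limma interaction). It was the sole member of the list with a called difference (background 0.741% with a larger cold and 0.296% with a larger HFD effect). Without HFD replicate 2 it was not called.

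**Figure D2:**
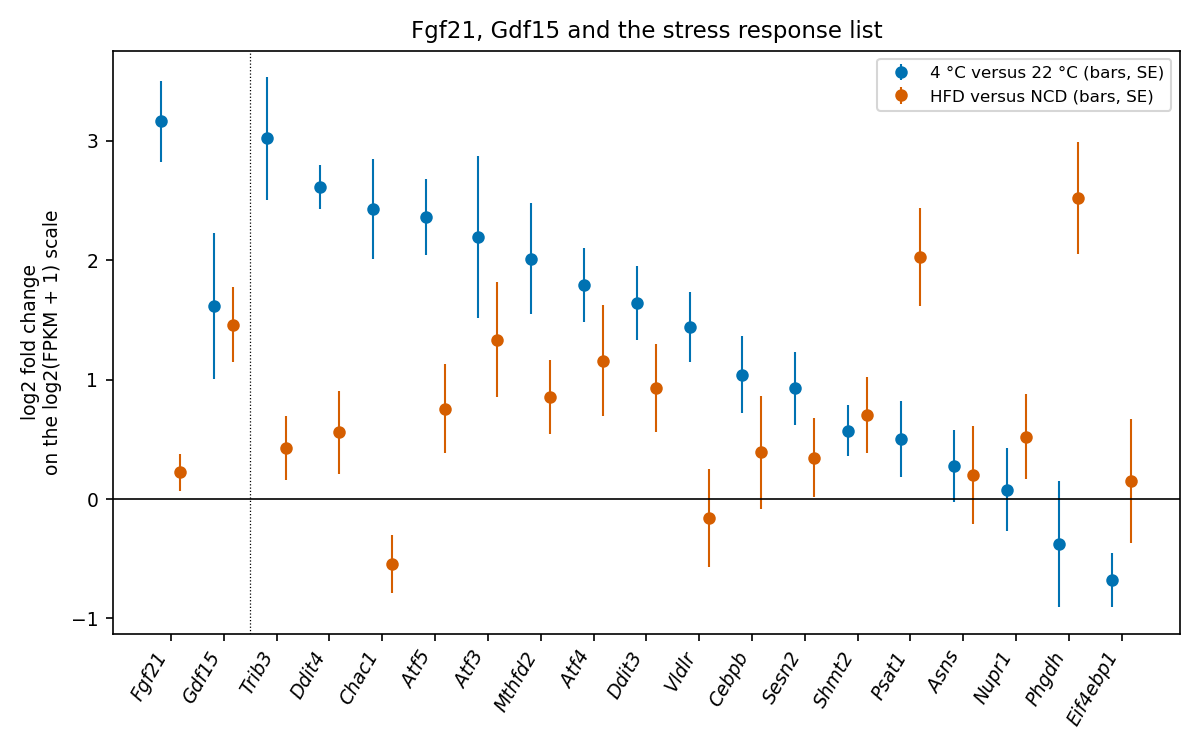
Fold change on the log2(FPKM + 1) scale (y axis, bars are SE from limma) of Fgf21, Gdf15 and 17 genes of the stress response list tested in both comparisons, for 4 °C versus 22 °C and HFD versus NCD. Fgf21 (3.16) and Ddit4 (2.61) changed more in the cold than under HFD, while Gdf15 lies at 1.61 and 1.46.

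The receptors of these hormones were present in BAT to different degrees. Klb, the co-receptor of FGF21, was 14.4 and 17.6 FPKM at 22 °C, 15.5 and 9.83 at 4 °C, 11.4 and 11.8 in NCD and 5.15 and 11.02 in HFD. Its fold change was −0.34 in the cold (limma adjusted p 0.481) and −0.55 under HFD (0.593), with overlapping groups in the cold. Fgfr1 was 9.64 and 8.50 FPKM at 22 °C and 16.7 and 11.9 FPKM at 4 °C (fold change 0.59, limma adjusted p 0.204). Gfral, the receptor of GDF15, was listed at 0 in 4 libraries and at no more than 0.0380 FPKM in the others. None of the 5 receptor genes tested of 8 listed passed in either comparison (background 1.22% higher and 0.223% lower in the cold, 0.0684% under HFD). Their median fold change was 0.29 in the cold and 0.28 under HFD.

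Bmp8b (ENSMUSG00000002384, chromosome 4, 123105165 to 123132099, plus strand) encodes a BMP that brown adipocytes make and that raises their response to noradrenaline. It was 0.0826 and 0.0528 FPKM at 22 °C and 1.05 and 1.23 FPKM at 4 °C. The groups were well apart and the cold libraries close to each other, with a ratio of means of 16.9 (1.14 ± 0.126 against 0.0677 ± 0.0211 FPKM, SD, n = 2 each). The fold change of 1.004 ± 0.09 (SE, 95% interval 0.78 to 1.23, limma adjusted p 0.0215) was just past the 2-fold limit. Because of that limit the call ended under quantile normalization (0.97), rescaling to the autosomal sum (0.90) and without 22 °C replicate 7 (0.98). It also ended under median centring (0.75, limma adjusted p 0.0602). Without the filter on low values (limma adjusted p 0.171) and without the trend (0.0743) the call ended at an unchanged fold change. With the muscle covariate it ended at a fold change of 1.11 (limma adjusted p 0.134). Over the alternatives the adjusted p of Bmp8b ran from 6.94e-05 to 0.171 (limma). The difference was in the same direction in all alternatives run, but without either 4 °C library Bmp8b fell below the filter and could not be tested.

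Under HFD Bmp8b was 0.180 and 0.229 FPKM, against 0.751 and 0.557 FPKM in NCD. Both HFD libraries lay below both NCD libraries, 3.20 times lower by the means. On the log2 scale this was −0.46 ± 0.11 (SE, 95% interval −0.72 to −0.19) and did not pass (limma adjusted p 0.169), while the ratio was 0.323 and 0.304 within the library types. Both NCD libraries were under 1 FPKM, so Bmp8b could not have been called lower here. With library type as a covariate its limma adjusted p was 0.0165 at the same fold change, and the highest over the alternatives was 0.610. In group order Bmp8b was highest at 4 °C, then in NCD, HFD and at 22 °C, and no groups overlapped. Part of the gene overlaps Ppie and Gm17244 on the opposite strand and Oxct2b on its own, and whether strand was used in the counting is not given in the sources used here. Ppie was 3.25 and 3.20 FPKM at 22 °C, 4.84 and 3.86 at 4 °C, 6.92 and 3.81 in NCD and 5.22 and 8.36 in HFD. Oxct2b was at 0.0543 FPKM or less and Gm17244 at 0.0616 FPKM or less in every library. The paralog Bmp8a was at 0.0541 FPKM or less throughout and was not tested. Reads that Bmp8a and Bmp8b share could be split between them, which was not tested.

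Bmp4 (ENSMUSG00000021835, chromosome 14, 46383520 to 46390669, minus strand) encodes a BMP that commits precursor cells to the fat lineage. Its level was 0.564 and 0.252 FPKM at 22 °C, 1.21 and 0.794 at 4 °C, 0.297 and 0.274 in NCD and 0.716 and 0.722 in HFD. Both treated groups were above their own controls, by 2.46 times in the cold and 2.52 times under HFD. Neither passed (fold change 0.51 ± 0.16 and 0.42 ± 0.11, SE, limma adjusted p 0.147 and 0.191). With library type as a covariate the HFD adjusted p was 0.0225 at the same fold change (limma, range over the alternatives 0.0225 to 0.977). Within library types the cold ratio was 1.41 and 4.81 and the HFD ratio 2.62 and 2.43. With the macrophage score described with Gdf15 as a covariate over all 8 libraries, the HFD difference of Bmp4 was 0.0214 ± 0.29 (SE, limma adjusted p 0.977). With a score of skeletal muscle markers instead it was 0.64 under HFD (limma adjusted p 0.409) and 0.30 in the cold (0.502). Of 7 fibroblast markers 6 were higher in both HFD libraries (background 39.9%), summing to 266 and 243 FPKM in HFD and to 91.5 and 102 FPKM in NCD, none of them at 0 in all libraries, and their part in the result was not tested. Both genes that overlap Bmp4 on the opposite strand, Gm15217 and Gm15222, were at 0.0876 FPKM or less.

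Bmp7 (ENSMUSG00000008999, chromosome 2, 172868012 to 172940321, minus strand), known as a driver of brown adipocyte formation, was near the limit of detection. It was 0.108 and 0.0565 FPKM at 22 °C and 0.118 and 0.0379 at 4 °C, and 0.00993 and 0.0542 in NCD and 0.0478 and 0.0313 in HFD, or about 4 to 47 fragments. The groups overlapped in both experiments. The fold change in the cold was −0.01 (95% interval −0.15 to 0.14, limma adjusted p 0.960), and in the diet experiment Bmp7 was too low to be tested.

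Mstn (ENSMUSG00000026100, chromosome 1, 53061640 to 53068079, plus strand) encodes myostatin, a brake on muscle growth that is made mainly in skeletal muscle. It was 0.161 and 0.0292 FPKM at 22 °C and 1.75 and 0.478 at 4 °C, 11.7 times higher by the means. In the diet experiment it was 0.244 and 0.424 FPKM in NCD and 0.0602 and 0.0215 in HFD, 8.18 times lower by the means. No groups overlapped within an experiment, yet neither difference passed. The fold change was 0.88 ± 0.29 (SE) in the cold (limma adjusted p 0.151) and −0.35 ± 0.09 (SE) under HFD (0.170). Both NCD libraries were under 1 FPKM, so Mstn could not have been called lower under HFD. With library type as a covariate its HFD adjusted p was 0.0188 at the same fold change (limma, range over the alternatives 0.0188 to 0.969). Leaving out 4 °C replicate 11 brought it past the threshold in the cold (1.33, limma adjusted p 0.0475), while without 4 °C replicate 2 it was 0.44 (0.155, range over the alternatives 0.00208 to 0.507).

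Skeletal muscle markers moved with Mstn in both experiments. Of 12 listed markers 11 were found, and the sum of the 11 was 597 and 142 FPKM at 22 °C, 4405 and 2015 at 4 °C, 618 and 1569 in NCD and 210 and 40.2 in HFD. In the cold 11 of the 11 were higher in both libraries (background 37.9%) and under HFD 10 of the 11 lower in both (background 5.8%), none was at 0 in all libraries and 0 passed in either comparison. The 8 libraries stood in the same order by the marker sum as by Mstn. With the mean muscle score as a covariate over all 8 libraries, the Mstn difference was 0.49 in the cold (limma adjusted p 0.507) and 0.06 under HFD (0.969). The marker sums did not overlap between the groups of an experiment, so muscle level and treatment cannot be told apart.

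**Figure D3:**
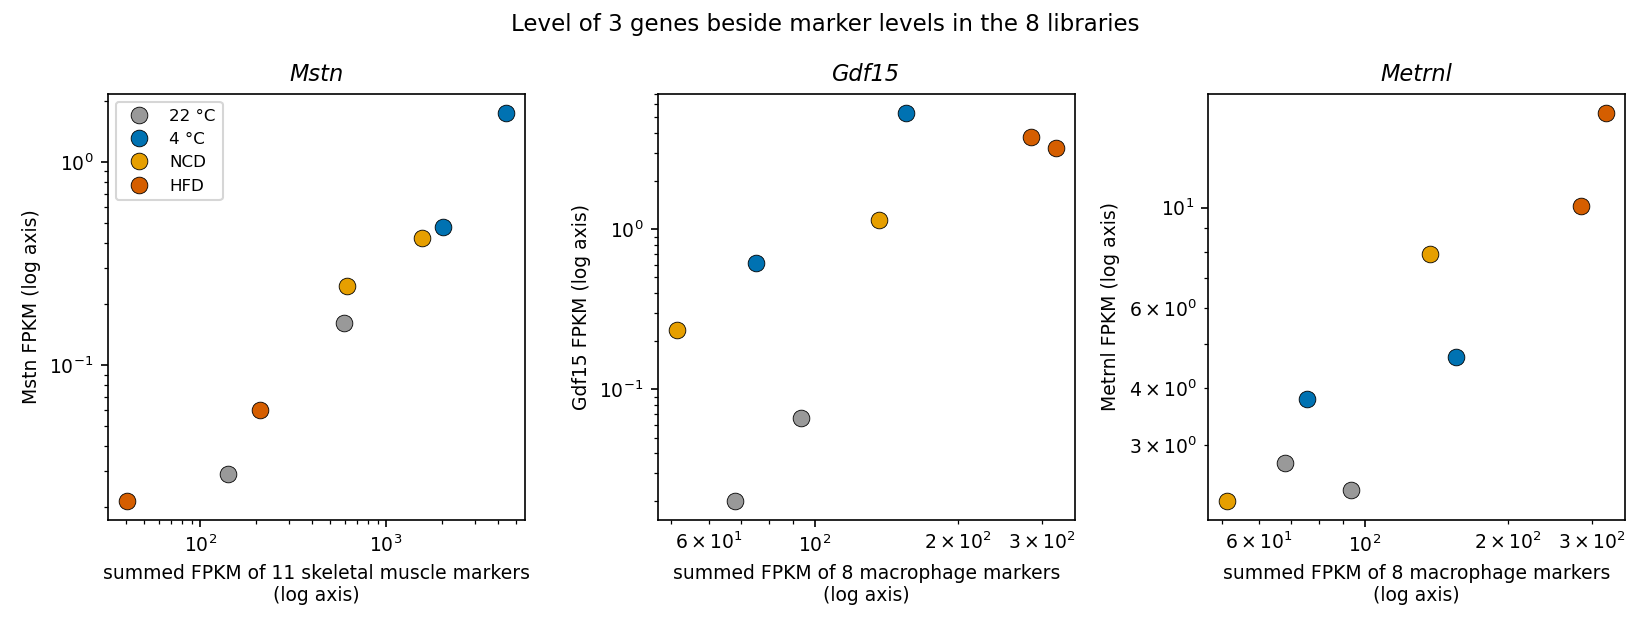
FPKM of Mstn, Gdf15 and Metrnl (y axes, log) against the summed FPKM of 11 skeletal muscle or 8 macrophage markers (x axes, log), 1 point per library, coloured by group. Mstn follows the muscle sum from 40.2 to 4405 FPKM, and the HFD libraries have the highest macrophage sums, 284 and 321 FPKM.

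Inhbb (ENSMUSG00000037035, chromosome 1, 119415465 to 119422248, minus strand) encodes the chain that pairs to form activin B, a ligand of the receptor ACVR1C in fat cells. It was 0.696 and 0.516 FPKM in NCD and 1.67 and 1.85 in HFD. The HFD libraries were close together and 2.91 times higher by the means (1.76 ± 0.122 against 0.606 ± 0.127 FPKM, SD, n = 2 each), and the ratio was 3.24 and 2.65 within the library types. The fold change was 0.78 ± 0.19 (SE, 95% interval 0.33 to 1.23, limma adjusted p 0.169), which did not pass. With library type as a covariate the limma adjusted p was 0.0108 (range over the alternatives 0.0108 to 0.636), with the fold change still short of the 2-fold limit. With the macrophage score as a covariate over all 8 libraries the fold change was 0.33 ± 0.26 (SE, limma adjusted p 0.636). In the cold Inhbb was 0.660 and 0.428 FPKM at 22 °C and 0.427 and 0.197 at 4 °C, with the highest 4 °C library all but equal to the lowest 22 °C library. The fold change there was −0.24 ± 0.13 (SE, 95% interval −0.55 to 0.08, limma adjusted p 0.308).

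Fst (ENSMUSG00000021765, chromosome 13, 114452262 to 114458730, minus strand) encodes follistatin, which binds and blocks activins and myostatin. It was 1.81 and 1.49 FPKM at 22 °C, 1.98 and 1.11 at 4 °C, 0.606 and 2.09 in NCD and 0.649 and 0.836 in HFD. Groups overlapped in both experiments, and the NCD libraries spanned the whole range of Fst. The fold change was −0.08 in the cold (95% interval −0.62 to 0.47, limma adjusted p 0.861) and −0.36 under HFD (−1.07 to 0.36, 0.639).

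Il6 (ENSMUSG00000025746, chromosome 5, 30013114 to 30019981, plus strand), an inflammatory cytokine that fat tissue also releases in the cold, was at 0.153 FPKM or less in every library, about 2 to 31 fragments. It was 0.00737 and 0.0472 FPKM at 22 °C and 0.0222 and 0.0193 at 4 °C, too low to be tested. It was 0.107 and 0.0205 FPKM in NCD and 0.0805 and 0.153 in HFD, with a fold change of 0.07 (95% interval −0.10 to 0.24, limma adjusted p 0.707). Groups overlapped in both experiments, and a difference was not shown. NCD replicate 6 was high among the controls in Il6 as it was in Ccl2, a chemokine that attracts monocytes, which was 30.7 FPKM there and 0.357 in NCD replicate 8, and 14.0 and 44.2 in HFD.

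Metrnl (ENSMUSG00000039208, chromosome 11, 121701544 to 121716306, plus strand) encodes meteorin-like, a hormone of muscle and fat that acts on immune cells. It was at least at 2.26 FPKM in all 8 libraries. At 22 °C it was 2.38 and 2.74 FPKM and at 4 °C 4.68 and 3.79, 1.66 times higher with a ratio of 1.59 and 1.71 within the library types (fold change 0.55 ± 0.19, SE, limma adjusted p 0.162). In NCD it was 7.89 and 2.26 FPKM and in HFD 10.1 and 16.2. Both HFD libraries were above both NCD libraries, 2.58 times by the means, and the NCD libraries again differed widely. On the log2 scale the difference was 1.36 ± 0.52 (SE, 95% interval 0.14 to 2.57, limma adjusted p 0.301). Against NCD replicate 8 alone, of the same description prefix, it was 2.08 and passed (limma adjusted p 0.000921), while without NCD replicate 8 it was 0.63 (0.644). It also passed with library type as a covariate (0.0132), and its adjusted p over the alternatives ranged from 0.000921 to 0.980. The macrophage markers described with Gdf15 were low in NCD replicate 8 and high in HFD as well, and with their score as a covariate the difference of Metrnl was −0.28 ± 0.77 (SE, limma adjusted p 0.887). With the muscle score instead it was 0.43 under HFD (limma adjusted p 0.853) and 1.44 in the cold (0.332).

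**Figure D4:**
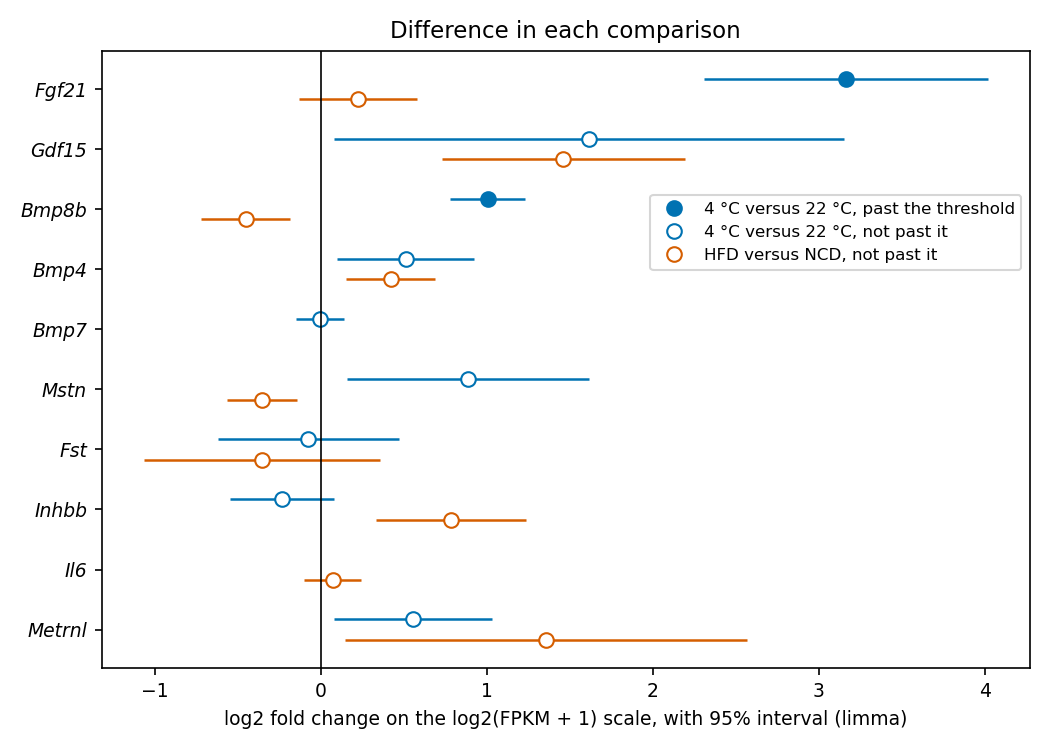
Fold change on the log2(FPKM + 1) scale with its 95% interval (x axis, limma) for the 10 genes in the cold and under HFD; filled points passed the threshold. Fgf21 (3.16) and Bmp8b (1.004) are filled in the cold; Il6 in the cold and Bmp7 under HFD were not tested and have no point.

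Whether a gene responded differently to cold and to HFD was tested as the difference between both effects in 1 fit of all 8 libraries. Of the 10 genes 2 had a larger cold effect, where 0.741% of 18902 genes did, and none had a larger HFD effect (background 0.296%). Fgf21 differed by 2.94 ± 0.42 (SE, 95% interval 1.96 to 3.92, limma adjusted p 0.0358) and Bmp8b by 1.46 ± 0.14 (1.14 to 1.78, adjusted p 0.0105). Single libraries decided these calls. Bmp8b lost its call without either 22 °C or either HFD library (adjusted p 0.0534 to 0.0723), and Fgf21 without these or NCD replicate 8 (0.0821 to 0.128), with differences of 1.43 or more and 2.91 or more (limma). Over all alternatives adjusted p ran from 0.0107 to 0.0810 for Bmp8b and from 0.00654 to 0.128 for Fgf21. Inhbb, with the opposite sign, differed by −1.02 ± 0.20 (SE) and was short of the threshold (limma adjusted p 0.0615), which it passed with library type as a covariate (0.0454, range over the alternatives 0.0454 to 0.207), as was Mstn at 1.24 ± 0.35 (0.129). Single libraries moved the Mstn difference, to 1.69 without 4 °C replicate 11, where it passed, and to 0.79 without 4 °C replicate 2. For Gdf15 the effects differed by 0.15 with a wide interval (−1.72 to 2.03) that holds differences of either sign.

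Other genes of the TGF-beta superfamily were followed from 5 lists. Of 26 further ligands 13 were high enough to be tested in the cold and 14 under HFD, and 0 passed in either (background 1.22% higher and 0.223% lower in the cold, 0.0684% under HFD). Only 3 of the 26 had a mean of 1 FPKM or more, with Bmp6 the highest (2.64 FPKM). With an adjusted p of 0.0339 in the cold, Gdf5 still stayed under the 2-fold limit (0.931 and 0.760 FPKM at 22 °C, 0.113 and 0.0792 at 4 °C, fold change −0.75, limma). Both 22 °C libraries were under 1 FPKM, so Gdf5 could not have been called lower. The median fold change of the ligands was −0.08 in the cold and 0.30 under HFD, where the medians over all genes tested were 0.07 and 0.18.

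The receptors were more abundant than the ligands, with 11 of 14 at a mean of 1 FPKM or more. None of the 14 tested in the cold (background 1.22% higher and 0.223% lower) or the 13 under HFD (background 0.0684%) passed. Their median fold change was 0.20 and 0.40. Acvr1c, the receptor of activin B, was the highest by mean (16.95 FPKM), at 12.3 and 14.3 FPKM at 22 °C, 23.2 and 21.9 at 4 °C, 16.1 and 10.9 in NCD and 13.6 and 23.3 in HFD. It was higher in both cold libraries, without passing the test (fold change 0.72, limma adjusted p 0.107). Among receptors that bind BMPs, Bmpr1a was 9.17 and 8.77 FPKM at 22 °C and 13.6 and 9.32 at 4 °C (0.30, 0.475), and Bmpr2 was 4.82 and 5.38 and then 5.42 and 6.11 FPKM (0.15, 0.658).

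Over all genes tested the median fold change was 0.07 in the cold and 0.18 under HFD. None of the 6 SMAD genes passed in either comparison (background 1.22% higher and 0.223% lower in the cold, 0.0684% under HFD), with a median fold change of 0.05 and 0.49, nor did any of the inhibitors, of which 16 were tested in the cold and 13 under HFD (0.09 and 0.31). Of 8 known target genes 1 rose in the cold (background 1.22%) and none fell (0.223%). This was Ctgf, which encodes a matrix protein induced by TGF-beta, at 1.19 and 0.865 FPKM at 22 °C and 8.13 and 4.92 at 4 °C (fold change 1.86, limma adjusted p 0.0467). The call of Ctgf ended without the filter on low values, without the trend and with the muscle covariate. The BMP targets Id1, Id2, Id3 and Id4 did not pass in either comparison. Under HFD none of the 8 passed, with a median of 0.80. Of the 10 genes tested from 13 of IL-6 signalling none passed in either comparison (median 0.10 and 0.55).

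Finally, 22 other factors that BAT is known to secrete were tested for context. In the cold 2 rose (background 1.22%), S100b, which encodes a protein that promotes nerve growth in BAT (7.66 and 7.95 FPKM at 22 °C, 23.3 and 21.45 at 4 °C, fold change 1.41, limma adjusted p 0.0442), and Ptgds, a prostaglandin synthase (1.16 and 0.845, then 3.93 and 4.37 FPKM, 1.37, 0.0441). The calls of S100b and Ptgds ended without the filter on low values, without the trend and with the muscle covariate. None of the 22 fell (background 0.223%), and the median was −0.05. Nrg4, a batokine that acts on the liver, was 46.8 and 46.5 FPKM at 22 °C and 53.2 and 54.5 at 4 °C and did not pass (0.20, limma adjusted p 0.582). Under HFD none of the 22 passed (background 0.0684%, median 0.33). Between cold and HFD, Igf1, a growth factor, differed by −2.25 (limma adjusted p 0.0489), the sole called difference among the 22 (background 0.296%), from 7.54 and 4.40 FPKM at 22 °C to 2.96 and 2.49 at 4 °C and from 1.14 and 1.11 in NCD to 5.47 and 3.69 in HFD.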

How the data were processed

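BAT RNA of 8 mice was depleted of ribosomal RNA and sequenced as directional paired-end libraries. Per the labels and the study's methods, the authors mapped reads to GRCm38 with TopHat2 2.0.10 and computed the deposited FPKM with Cufflinks on Ensembl genes (2.2.1 in the submitters' processing notes, where the study's methods name another version). STAR and DESeq2 are listed there too, and counts were not used here. The table holds 1 FPKM value per gene and library with no pooling.

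The 10 genes and all lists were chosen with earlier results of these data known. All 10 are named. The rule for list genes was to name those called and those that bind a called member, and Atf4, Eif4ebp1, Gfral, Gdf5, Bmp6, Acvr1c, Id1 to Id4, Nrg4 and Ccl2 were named beyond it after their values were seen. FPKM was analysed as log2(FPKM + 1) with limma 3.58.1 (lmFit, eBayes with trend) in R 4.3.3, on the 4 libraries of a comparison, or all 8 for the difference between effects. Genes needed 0.1 FPKM in 2 libraries, and X, Y and mitochondrial genes were left out. P-values were two-sided and adjusted by Benjamini-Hochberg over all genes tested. The table is of FPKM without counts, so no count model was run. Figures and sums were made with pandas 2.3.3, NumPy 2.4.6 and matplotlib 3.10.9. The label's numbers name separate samples, and 2 per group bound the precision. Replicates correlated across autosomal genes at r 0.969 to 0.982 and shared at most 1 identical value, and libraries of different groups at up to 0.981 (NCD replicate 6 with HFD replicate 6). By 97.7% to 98.7% of low values, whole within 0.1 fragment after a length correction, fragment numbers were estimated. They are approximate and reflect sampling of fragments alone, since no molecular identifiers were used. Alternatives were the pseudocount (0.1), filters, scalings, library type, chromosomes, trend, all 8 libraries and leaving out each library; marker scores as covariates, within-type values and the description prefix were added after seeing the data.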

Additional observations from a re-analysis of the deposited data

How the results depend on the processing

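No paired analysis was possible because 22 °C and 4 °C share no replicate numbers and NCD and HFD share only number 6. Library type, with 1 library of each type per group, was fitted as a covariate. In the cold, the 2 calls among the 10 genes became 0 without the filter on low values, without the trend and with the muscle covariate, and 1 under median centring and under quantile normalization. After rescaling they were 2, with Gdf15 in place of Bmp8b. Leaving out a library gave 0 to 3. Under HFD the count of 0 became 2 with library type as a covariate and 0 to 2 when a library was left out. For the difference between effects the 2 calls became 0 without the filter, 1 without the trend and 3 with library type as a covariate, where Inhbb passed, and 0 to 3 without a library.

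The count over all genes was less stable. In the cold 252 became 474 with a pseudocount of 0.1, 0 without the filter, 529 with a filter of 1 FPKM, 755 under median centring, 491 under quantile normalization, 511 after rescaling to the autosomal sum, 859 with library type, 920 with X, Y and mitochondrial genes, 0 without the trend and 0 with the muscle covariate, and 1 to 767 without a library. The share of higher calls, 84.5%, was 65.6%, 63.8% and 67.1% under the 3 scalings, which moved the median fold change of all genes from 0.07 to −0.18, −0.03 and −0.10. Under HFD 12 became 0 without the filter, 24 with the stricter filter, 45 under median centring (median of all genes −0.18, from 0.18), 0 under quantile normalization and rescaling, 745 with library type, 0 with all chromosomes, 0 without the trend, 25 with all 8 libraries, 0 with either marker score and 98 to 726 without a library. For the difference, 196 became 8 without the filter, 465 and 418 under median and quantile scaling, 599 with library type, 94 with all chromosomes, 55 without the trend and 6 to 539 without a library.

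Direction was kept by Fgf21, Gdf15, Bmp8b, Bmp4, Mstn, Inhbb and Metrnl in the cold and by Gdf15, Bmp8b, Bmp4, Inhbb and Metrnl under HFD in each alternative run, except for Gdf15 (−1.11) and Metrnl (−0.28) with the macrophage score. That score also turned Fgf21 (−0.85), Fst (0.15) and Il6 (−0.0299). Other reversals under HFD were Fgf21 (−0.13) and Il6 (−0.28) under median centring, and Mstn (0.0571), Fst (0.10) and Il6 (−0.0560) with the muscle score. The difference between effects reversed for Bmp7 under median centring (0.0822) and quantile normalization (0.0104), for Il6 under median centring (0.0194) and for Bmp4 after rescaling (−0.0011). Without a library, Fst ran from −0.33 to 0.17 in the cold (higher without 22 °C replicate 4, 0.0118, or 4 °C replicate 11) and from −0.83 to 0.12 under HFD (higher without NCD replicate 8), and Bmp7 from −0.0405 to 0.0471 in the cold (higher without 4 °C replicate 11). The difference between effects then ran from −0.83 to 1.14 for Gdf15 (below 0 without 4 °C replicate 2 or NCD replicate 6), from −0.0699 to 0.25 for Bmp4 (below 0 without 22 °C replicate 7 or 4 °C replicate 2), from −0.19 to 0.75 for Fst (below 0 without NCD replicate 8) and from −0.0512 to 0.0363 for Bmp7 (above 0 without 4 °C replicate 11 or NCD replicate 6). None of these reversed values passed the threshold, and the cause was not tested. Without a 4 °C library Gdf15 and Bmp8b could not be tested in the cold. Where a library was left out, the lone library of its group was assumed to vary like the others. By their highest library, Il6 and Bmp7 had the fewest fragments of the 10 genes, no more than about 31 and 47.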

Other observations

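For the 4 genes with a mean of 1 FPKM or more, the 3 genes with the most similar pattern were sought among 10883 autosomal genes of at least that mean, by Pearson r of log2(FPKM + 1) over the 8 libraries, which share groups and library types. For Fgf21 they were Cend1 (r 0.998), Rnf185 (0.996) and Abtb2 (0.992). Cend1, known from neuronal differentiation, was 0.174 and 0.236 FPKM at 22 °C, 13.7 and 6.33 at 4 °C, 0.787 and 0.702 in NCD and 0.987 and 0.765 in HFD, also highest at 4 °C and lowest at 22 °C. For Gdf15 they were Nfe2l1, Vcp and Ehd1 (r 0.972 each). Nfe2l1, a transcription factor of proteasome genes, was 70.3 and 68.8 FPKM at 22 °C, 125 and 91.2 at 4 °C, 95.7 and 76.5 in NCD and 112 and 122 in HFD, a far smaller range than that of Gdf15.

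For Metrnl they were Clec4d (r 0.988), Emp1 (0.988) and Mre11a (0.987). Clec4d, a lectin receptor of myeloid cells, was 0.0208 and 0.0203 FPKM at 22 °C, 0.910 and 0.302 at 4 °C, 2.50 and 0.0564 in NCD and 3.18 and 4.60 in HFD, and thus was high in NCD replicate 6 as Metrnl was. For Fst they were Fgf2 (r 0.953), Ppp2r3a (0.878) and D930015E06Rik (0.875), less similar than the nearest genes of the other 3. Between members, the highest r were 0.906 for Il6 with Metrnl and 0.855 for Fgf21 with Mstn, and the lowest was −0.797 for Fst with Metrnl, over 45 pairs and 8 libraries, as a description.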
